A study of Mus musculus with 3 samples.

Results

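The Schlafen genes examined here are the mouse genes Slfn1, Slfn2, Slfn3, Slfn4, Slfn5, Slfn8 and Slfn9, which were selected by symbol and are 7 of the 55536 mouse gene IDs quantified. They were measured by sequencing of polyadenylated RNA in bone-marrow-derived macrophages, phagocytes grown out of marrow, from the inbred strain C57BL/6J. All 3 libraries, biological replicates 1, 2 and 3, form a single group. The cells had received 100 ng/mL of the stimulus for 180 min. The labels disagree on the stimulus: one field names lipid A, the Toll-like receptor 4 ligand of bacterial lipopolysaccharide, and others name lipoprotein A. No unstimulated group was analysed here, so no value below is a response. Since the labels number biological replicates but give 1 donor identifier for all libraries, biological and technical spread cannot be told apart.

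Schlafen genes form a family that is induced by interferons in many immune cells and that has been linked to the control of cell growth, of viral replication and of transfer RNA. Mouse members are grouped by length: short proteins (Slfn1 and Slfn2), intermediate ones (Slfn3 and Slfn4) and long ones with an added helicase-like part (Slfn5, Slfn8 and Slfn9). In macrophages, recognition of lipid A leads to secretion of type I interferon, which signals through its receptor, JAK kinases and STAT and IRF transcription factors.

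The 7 genes lie on chromosome 11 (mm10) within 263.806 kb, from 82951349 to 83215154. Slfn5 (ENSMUSG00000054404.13, 82951349 to 82964840), Slfn2 (ENSMUSG00000072620.3, 83065112 to 83070678), Slfn1 (ENSMUSG00000078763.2, 83116849 to 83122670), Slfn4 (ENSMUSG00000000204.16, 83175186 to 83190216) and Slfn3 (ENSMUSG00000018986.10, 83191330 to 83215154) are on the forward strand. Slfn9 (ENSMUSG00000069793.12, 82978390 to 82991830) and Slfn8 (ENSMUSG00000035208.16, 83002158 to 83020810) are on the reverse strand. The coding part of the most abundant transcript held 337 codons in Slfn1, 378 in Slfn2, 517 in Slfn3, 602 in Slfn4, 884 in Slfn5 and 910 in both Slfn8 and Slfn9. Level did not follow position: the highest member, Slfn2, lay between the pseudogene Slfn10-ps and Slfn1, which were both under 30 TPM (a level scaled by transcript length and by the library total).

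**Figure D1:**
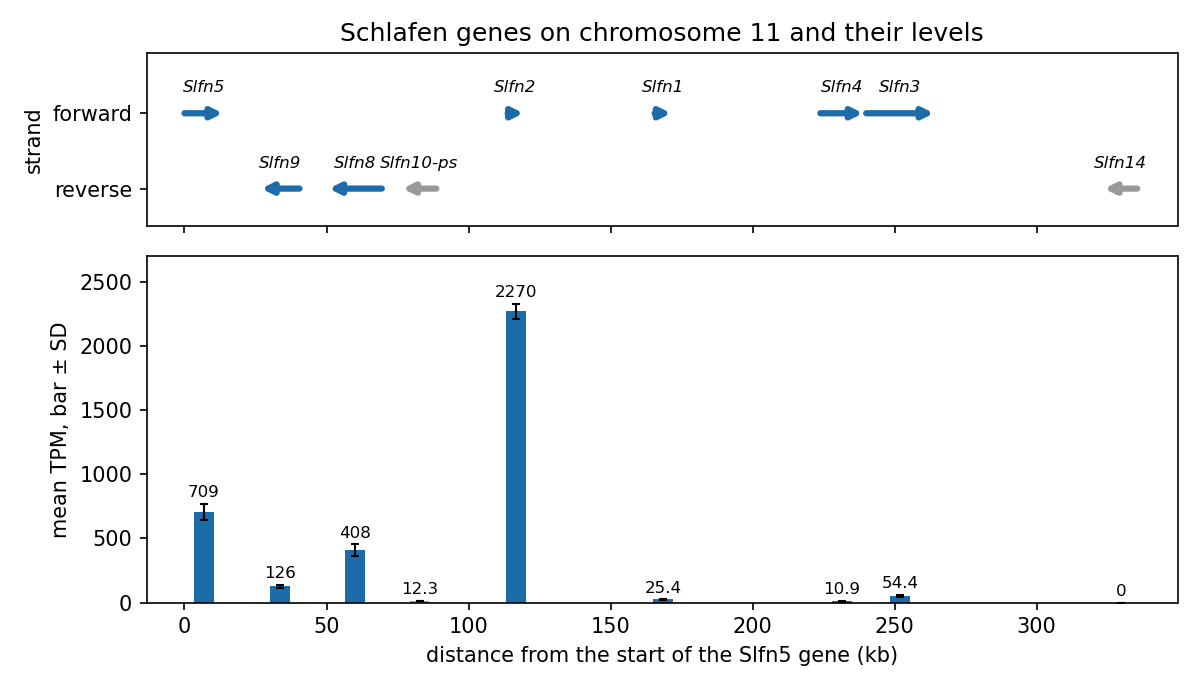
The upper panel maps the Schlafen genes of the chromosome 11 cluster by distance in kb from the start of Slfn5, with arrows in the direction of transcription. The lower panel gives each gene's mean TPM (bar) and SD over 3 libraries; the 7 members are blue, Slfn10-ps and Slfn14 are grey, and Slfn2 stands highest at 2270 TPM.

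Promoter sequences set the 3 long members apart from the others in a searched motif, and are shown for that reason. The motifs searched did not separate the short from the intermediate members. The windows, from RefSeq on GRCm38.p6 (the mm10 assembly), ran from 250 bases before to 50 bases after the start site, and all 7 members matched a window. The core of the interferon-stimulated response element, searched on both strands as GAAA, 2 bases of any kind and GAAA again, was present in the 3 long members and in none of the others, against 3.44% of all 32851 windows. Stretches of the 3 windows follow, without the last 10 bases before the start site, 5′ to 3′ along the gene, with the match in capitals.
Slfn5 (chr11:82951932-82952091, forward strand): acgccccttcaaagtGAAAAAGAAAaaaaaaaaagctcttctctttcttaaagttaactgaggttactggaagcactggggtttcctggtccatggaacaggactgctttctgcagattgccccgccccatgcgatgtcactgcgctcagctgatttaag
Slfn8 (chr11:83020821-83020980, reverse strand): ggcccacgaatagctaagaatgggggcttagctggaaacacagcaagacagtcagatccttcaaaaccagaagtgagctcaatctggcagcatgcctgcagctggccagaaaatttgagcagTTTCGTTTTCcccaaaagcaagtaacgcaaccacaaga
Slfn9 (chr11:82991841-82992000, reverse strand): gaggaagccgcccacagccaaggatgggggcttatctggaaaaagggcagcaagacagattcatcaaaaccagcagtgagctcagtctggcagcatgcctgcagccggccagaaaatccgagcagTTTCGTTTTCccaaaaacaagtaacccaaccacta
The Slfn5 match lay in an A-rich stretch on the gene's own strand, with its first base 155 bases before the start. Those of Slfn8 and Slfn9 were on the opposite strand, were the same 10 letters, and began 48 and 45 bases before the start. The same bases of Slfn8 were also in the window of a second RefSeq start, where they began 136 bases before it. Over the 250 bases before the start, Slfn8 and Slfn9 had 85.1% identity across 242 aligned bases, so their matches are not separate observations. No other pair of members exceeded 69.8%.

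The promoters of Slfn1, Slfn2, Slfn3 and Slfn4 held no such core but shared a run of 9 bases, ACTTCCTGG, within 74 bases of the start. It was picked out after the sequences were seen, as the longest run common to all 4 in the 250 bases before the start, the part searched in every window. It was in 4 of 4 of these windows by that choice, in none of the 3 long members, and in 0.7% of all windows. The coding parts of these 4 genes were 71.3% to 95.3% identical, so their windows may not be separate observations. The same search in the long members gave runs of 7 bases. The stretches around the run of 9 follow, with that run in capitals.
Slfn2 (chr11:83065027-83065101, forward strand): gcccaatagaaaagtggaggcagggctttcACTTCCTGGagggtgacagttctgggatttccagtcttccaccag
Slfn1 (chr11:83116735-83116809, forward strand): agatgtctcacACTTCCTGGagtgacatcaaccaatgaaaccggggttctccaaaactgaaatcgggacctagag
Slfn3 (chr11:83191245-83191319, forward strand): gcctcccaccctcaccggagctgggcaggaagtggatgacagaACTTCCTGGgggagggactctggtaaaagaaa
Slfn4 (chr11:83175101-83175175, forward strand): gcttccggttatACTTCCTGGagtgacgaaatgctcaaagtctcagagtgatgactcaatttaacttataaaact
The run began 55 bases before the start in Slfn2, 74 in Slfn1, 42 in Slfn3 and 73 in Slfn4, on the gene's strand each time. For Slfn1 the RefSeq start, 83116820, lies upstream of the GENCODE start at 83116849. None of the 7 windows held the STAT site TTCNNNGAA, which was in 8.3% of windows, or the NF-kB site searched as GGGA and TTCC with 2 bases of any kind between them, which was in 1.47%. In other interferon-inducible families, the interferon element core was in the windows of 5 of 6 IFIT genes (all but Ifit2) and of 5 of 5 GBP genes that had a window, while 6 GBP genes had none. These matches describe letters only, and binding was not measured.

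**Figure D2:**
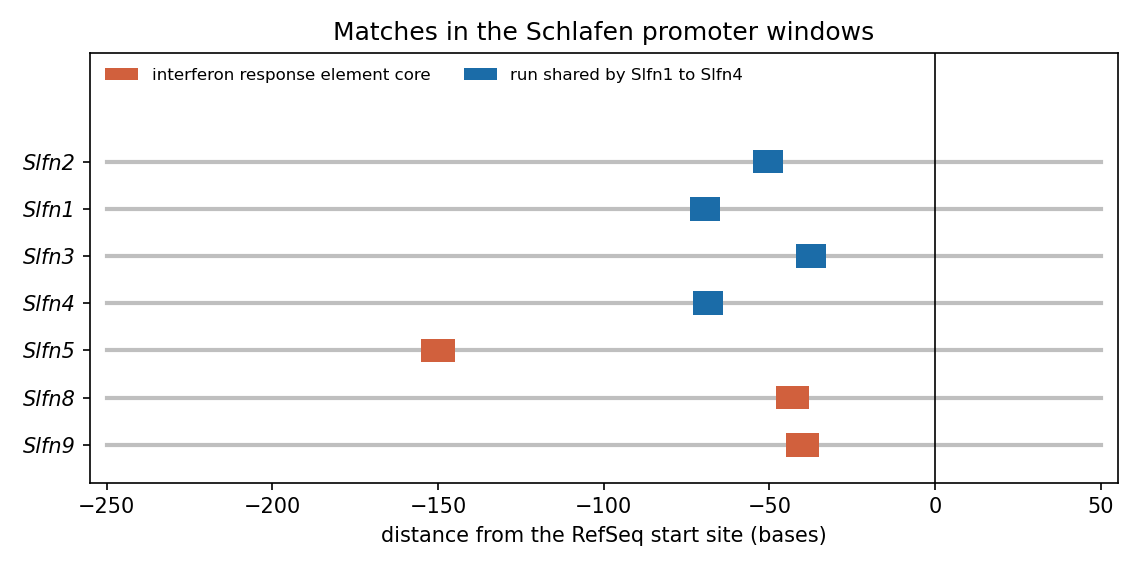
Each grey line is the promoter window of a Schlafen gene, in bases from the RefSeq start site (0). Orange boxes, found in the 3 long members, mark the interferon response element core, and blue boxes mark the run shared by the other 4 members, 42 to 74 bases before the start.

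All 7 Schlafen genes were detected, at 1 TPM or more in every library, against 18.1% of all mouse genes. Slfn2, Slfn5, Slfn8 and Slfn9 (4 of 7) reached 100 TPM in each of the libraries, against 2.06% of all mouse genes. All mouse genes here include pseudogenes and noncoding genes. The summed level of the family was 3769, 3564 and 3477 TPM in replicates 1, 2 and 3. Slfn2 made up 63.0% ± 1.98 (SD, n = 3) of that sum, and Slfn2 and Slfn5 together 82.7% ± 1.41. The median member lay at 126 ± 14.8 TPM, beside 14.6 ± 0.535 TPM for the median detected gene. In bulk RNA, fewer cells with a transcript and less of it per cell cannot be told apart.

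Slfn2, whose loss in mice breaks the quiescence of T cells and monocytes, had 2328, 2211 and 2271 TPM in replicates 1, 2 and 3 (2270 ± 58.3). It ranked 53rd of all mouse genes and had a coefficient of variation (CV, the SD over the mean) of 2.57% beside a median of 16.5% over detected genes. That CV was at the 1.79th percentile of detected genes, but it was 10.1% (15.2nd percentile) in the second quantification, with 1661, 2029 and 1815 TPM, and 6.11% (10.2nd percentile) in TMM-scaled CPM. Slfn1, the founding short member, described in developing T cells, had 26.2, 23.3 and 26.8 TPM (25.4 ± 1.86). The short pair thus held both the highest member and the one next to lowest, and no library of Slfn1 came near one of Slfn2.

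Slfn3 and Slfn4, the intermediate members, were the fifth and the lowest of the family. Slfn3, studied in T cells and the gut epithelium, had 48.0, 62.4 and 53.0 TPM (54.4 ± 7.32). Slfn4, known as an interferon-inducible gene of myeloid cells, had 14.0, 13.4 and 5.31 TPM (10.9 ± 4.84). Replicate 3 thus stood apart for Slfn4: the mean of the other libraries was 13.7 TPM, 2.58-fold higher. The CV of Slfn4, 44.5%, was at the 94.2nd percentile of detected genes, and Slfn4 was the 1 member of 7 with an over 2-fold range between libraries, against 11.3% of detected genes. Its expected counts were 686, 893 and 590, so its low value in replicate 3 came from the deepest library.

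Among the long members, Slfn5, a nuclear protein reported to restrain interferon-driven transcription, had 778, 692 and 658 TPM (709 ± 62.0) and ranked 202nd of all mouse genes. Slfn8 had 436, 433 and 353 TPM (408 ± 47.1). Slfn9, its close relative, had 139, 128 and 110 TPM (126 ± 14.8). Their CVs, 8.74%, 11.6% and 11.7%, were below that of the median detected gene.

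**Figure D3:**
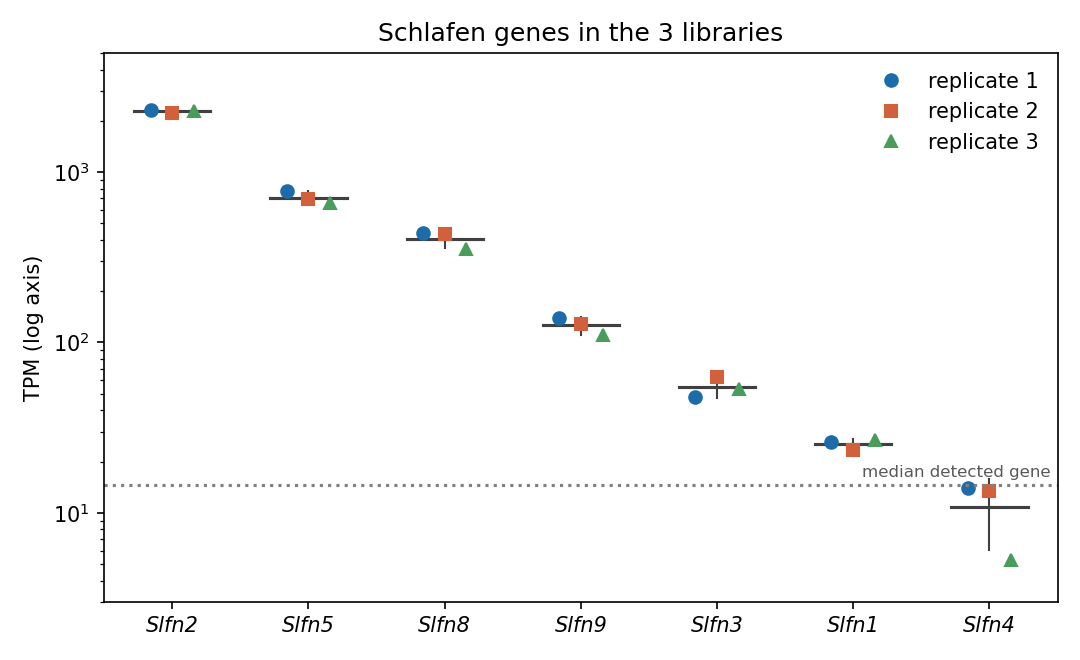
TPM (log axis) of the 7 Schlafen genes in each library, with the mean (horizontal bar) and SD (vertical line) over 3 libraries; the dotted line is the median detected gene, 14.6 TPM. Libraries of different members never overlap, and replicate 3 of Slfn4 lies apart at 5.31 TPM.

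The order of the levels was Slfn2, Slfn5, Slfn8, Slfn9, Slfn3, Slfn1 and Slfn4. On the scale of log2(TPM + 0.1), neighbours in that order differed by 1.68 ± 0.10 (SD, n = 3) for Slfn2 over Slfn5, 0.80 ± 0.11 for Slfn5 over Slfn8 and 1.69 ± 0.05 for Slfn8 over Slfn9. The lower neighbours differed by 1.21 ± 0.28 for Slfn9 over Slfn3, 1.09 ± 0.29 for Slfn3 over Slfn1 and 1.34 ± 0.85 for Slfn1 over Slfn4. The last of these, a 2.52-fold difference, shrank without replicate 3 from 1.34 to 0.85 on the log2 scale. In 21 of 21 pairs the mean difference exceeded its SD and had the same sign in every library, and the widest, Slfn2 over Slfn4, was 225-fold. Flipping the signs of the 3 differences, an exact two-sided permutation test, gave p = 0.25 for each pair, also after Benjamini-Hochberg adjustment over 21 pairs. That is the smallest p this test allows with 3 libraries, so no pair could pass 0.05. Length scaling set 2 of the 6 steps: in CPM, counts scaled by library size alone, 19 of 21 pairs held. There Slfn1 over Slfn4 was 0.47, within its spread. In replicates 1 and 2 Slfn1 was the lower, with 675 and 854 expected counts against 686 and 893 for Slfn4. It was the higher in replicate 3 only, with 1674 against 590. Slfn2 over Slfn5 was -0.22 in CPM, since Slfn5 drew 67394, 83080 and 131281 expected counts and the shorter Slfn2 52565, 70780 and 124057.

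Each of the 7 members departed from equal rates over the 3 libraries in a chi-square test on counts (adjusted p under 0.05), as did 77.5% of the 11611 genes tested, so the share called carries little about the members. Without replicate 1, Slfn5 no longer departed (adjusted p = 0.873), and without replicate 2, Slfn1 did not (adjusted p = 0.625). The biological coefficient of variation that edgeR fitted was 17.3% to 18.6% in 6 members and 30.6% in Slfn4, beside a median of 21.3% over genes. Slfn4, Slfn5, Slfn8 and Slfn9 (4 of 7) were highest in replicate 1 and lowest in replicate 3, against 13.8% of detected genes. This pattern was seen in none of the 7 in the second quantification, and in 2 of 7 there after scaling to the median gene. Over detected genes, the median log2 of the first over the second quantification was 0.39, 0.06 and 0.27 in replicates 1, 2 and 3.

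Transcript shares within a gene were compared in both deposited quantifications, the first from alignment and the second from the reads directly. Slfn1 and Slfn2 have 1 annotated transcript each, and the leading transcript of the 5 others, by mean share, was the same in both quantifications. In replicate 3 of Slfn4, Slfn4-202 led instead of Slfn4-201 in both, at 41.2% against 23.1% and at 39.0% against 26.7%. Slfn5-201, the full-length transcript, made up 93.1%, 88.6% and 86.1% of Slfn5 TPM in replicates 1, 2 and 3, and the 1263-base Slfn5-203 most of the rest (10.6% ± 3.53). Slfn9-201 made up 90.1%, 89.3% and 86.0% of Slfn9. Slfn8 was the most divided of the long members, with 55.2%, 51.8% and 44.7% in Slfn8-201 and 15.1% ± 1.86 in Slfn8-206. The second quantification put Slfn8-206 at 0.00695% and Slfn8-201 at 63.7%, so the presence of Slfn8-206 depended on the method.

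Slfn3 was split between Slfn3-201 (67.9% ± 2.02) and Slfn3-202 (31.7% ± 2.05), with little spread between libraries. Slfn4 had 3 coding transcripts at comparable shares, and its longest, Slfn4-201, made up 46.0%, 45.3% and 23.1% of the gene. In TPM, Slfn4-201 was at 6.43, 6.06 and 1.23, whereas Slfn4-202 was at 3.78, 2.59 and 2.19 and Slfn4-203 at 3.76, 4.73 and 1.90. All 3 transcripts were lowest in replicate 3, and the drop was steepest in the longest.

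The longest transcript had its lowest share in replicate 3, in both quantifications, in 4 of 4 members where that share lay between 5% and 95% (Slfn4, Slfn5, Slfn8 and Slfn9). The same held for 18.3% of the 4613 detected genes with such a share. This count was added after the values had been seen and was not tested, and RNA integrity was not measured. The coding parts of Slfn8 and Slfn9 were 92.7% identical, so their shares may not be separate observations.

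**Figure D4:**
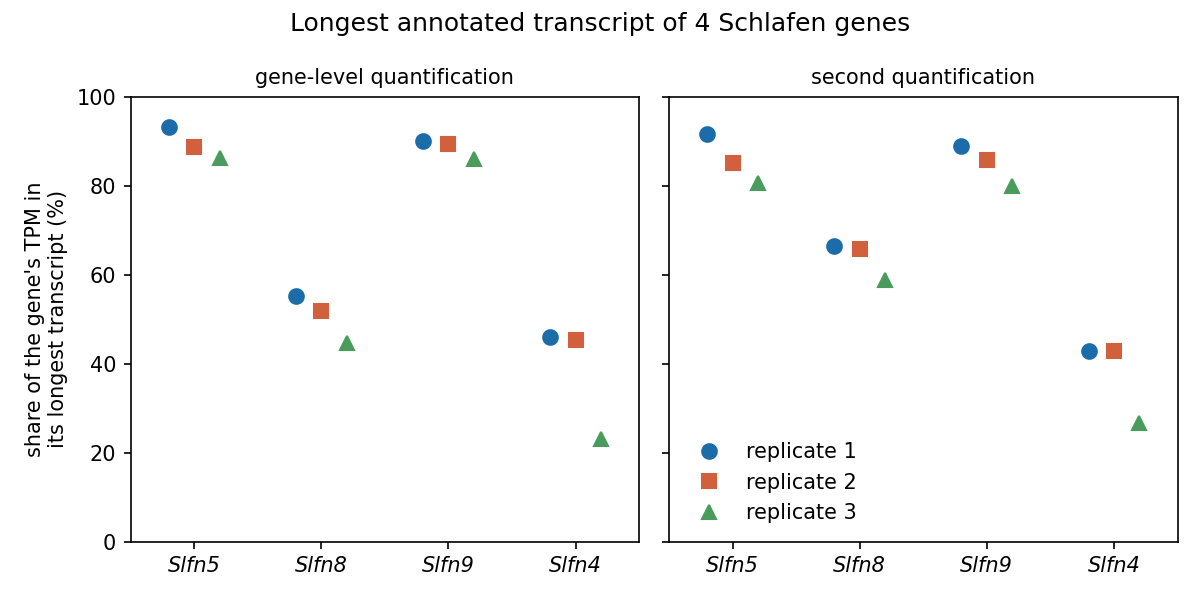
Share (%) of each gene's TPM in its longest annotated transcript, in each library, for the first (left) and second (right) quantification. Replicate 3 is the lowest point of all 4 genes in both panels, by the widest margin in Slfn4.

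Near-identical sequence bears on how reads were divided among members. The coding parts of Slfn3 and Slfn4 were 95.3% identical over 1521 aligned bases, and those of Slfn8 and Slfn9 were 92.7% identical over 2730, while all other pairs lay between 57.6% and 75.9%. Of the 31-base stretches of the leading transcript, 41.7% in Slfn3, 28% in Slfn8, 24.4% in Slfn9 and 21.2% in Slfn4 also occurred in another gene, mainly in the partner or, for Slfn9, in Slfn10-ps. For 75-base stretches the shares were 9.87%, 7.52%, 6.06% and 3.24%. At that length the gene that shared most was Gm11427 for Slfn3 and Slfn4, and Slfn10-ps for Slfn8 and Slfn9. For the other members the shares of 31-base and 75-base stretches were 14.2% and 8.81% in Slfn5, mainly with Slfn5os, 10.8% and 1.70% in Slfn2, and 1.96% and 0 in Slfn1. The posterior SD of the deposited counts was at most 0.0661% of any member's count. The quantifications were within 1.5-fold of each other for all members (0 of 7 apart, against 5.23% of detected genes). Relative to the median detected gene, the first was lower than the second by the most for Slfn4, at -0.30 ± 0.19 on the log2 scale (-0.18 without replicate 3), then for Slfn3, at -0.14 ± 0.04.

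Overlapping antisense genes could not be separated from Slfn5 and Slfn2, since the sources used here do not give the strand setting. Slfn5os, antisense to Slfn5, was listed at 3.54, 7.04 and 3.52 TPM, and at 16.7, 22.4 and 7.63 TPM in the second quantification. Gm20234, antisense to Slfn2, was at 2.70, 2.10 and 0.64 TPM, and at 13.1, 23.9 and 8.0 TPM there. Both stayed far below the gene they overlap. Slfn10-ps, the pseudogene between Slfn8 and Slfn2, had 13.6, 11.9 and 11.2 TPM. Slfn14, a ribonuclease gene of platelets and red cell precursors, and the Schlafen-like gene Slfnl1 of chromosome 4 had 0 counts in every library, which allows up to 1.23e-05%, 8.66e-06% and 4.95e-06% of the counts (3 counts of the total).

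Of the listed genes of the interferon pathway, 15 of 15 were detected, against 18.1% of all mouse genes. At 100 TPM or more in all 3 libraries were 10 of them, against 2.06% of all mouse genes. The list was chosen with earlier results of these data known, and all mouse genes include pseudogenes and noncoding genes. These shares are therefore descriptions only. Whether the pathway acted on the Schlafen genes in these cells was not tested. The ligand gene Ifnb1 had 9.34, 29.6 and 8.98 TPM and was highest in replicate 2. Of the members, 1 of 7 (Slfn3) was highest in that library in the first quantification, against 43.9% of detected genes, but 7 of 7 were in the second, against 67.3%. The receptor genes Ifnar1 and Ifnar2 were at 120 ± 8.83 and 189 ± 7.71 TPM, and the signal transducer Stat2 at 241 ± 18.7. Irf1 and Irf7, interferon regulatory factors, were at 1182 ± 119 and 593 ± 112 TPM, and Isg15, a ubiquitin-like protein induced by interferon, at 1968 ± 425. Slfn2 was thus at a level like that of Isg15, within the spread of Isg15.

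Other interferon-inducible families gave a scale for the spread. The IFIT genes, which bind foreign RNA, ranged from 0.56 to 3345 TPM with 5 of 6 detected, and the median CV of those detected was 11.1%, beside 11.6% for the Schlafen genes. The GBP genes, guanylate-binding proteins that attack pathogen membranes, ranged from 0.413 to 1286 TPM with 10 of 11 detected and a median CV of 28.7%. Of the 10 detected GBP genes, 8 were highest in replicate 1 and lowest in replicate 3, against 13.8% of all detected genes. That pattern was not examined for the GBP genes in the second quantification, where it was absent from the Schlafen members. These differences between families were not tested.

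The genes nearest to Slfn2 in all 3 libraries, by the root of the summed squared differences of log2(TPM + 0.1) among 9381 candidates, were Ifit1 (distance 0.19), Rps24 and Lamp1. Slfn5 lay nearest to Oasl2 (0.06), an interferon-inducible gene, at 752, 697 and 646 TPM, then Ms4a6c and Cybb. Slfn4 lay nearest to Pnn (0.20), Zfc3h1 and Prpf39. Pnn, at 14.2, 13.5 and 6.11 TPM, was lower in replicate 3 as Slfn4 was, which follows from how it was picked. Likeness over 3 libraries is a description of level and spread only.

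Macrophage markers were detected in 7 of 7 cases, with summed levels of 17754 to 27369 TPM, and Adgre1, which encodes F4/80, was at 646 ± 84.3 TPM. Markers of lymphocytes, where several Schlafen genes were first described, were near 0 apart from Lck at 34.7, 24.6 and 46.5 TPM: 1 of 6 T cell genes (summed 25.2 to 46.5 TPM), 1 of 5 B cell genes and 0 of 5 natural killer genes were detected, with Prf1 at 0. Dendritic cell markers were detected in 1 of 5 cases (summed 4.34 to 9.18 TPM). Neutrophil markers, 3 of 8 detected and Ly6g at 0, summed to 83.3, 714 and 48.4 TPM in replicates 1, 2 and 3. Camp and Mpo were lowest in replicate 1. Both the sum and Slfn4 were lowest in replicate 3. In replicate 2 the sum was highest, but Slfn4 was highest there only in the second quantification. Slfn4 was at 14.0, 13.4 and 5.31 TPM in replicates 1, 2 and 3, and at 12.2, 14.5 and 6.35 TPM in the second quantification. The part of neutrophil RNA in its level was not tested. Expected counts of mouse genes summed to 24450338, 34641026 and 60595742 in replicates 1, 2 and 3.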

How the data were processed

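Polyadenylated RNA of stimulated mouse macrophages was quantified in 3 libraries of 1 group. The authors deposited, per the file headers, a gene quantification with expected counts (estimated, not whole), TPM and FPKM, a transcript quantification that adds the percent of each gene, and a second transcript quantification from the reads with estimated counts and TPM. Per the text files deposited beside them, both used mm10 and GENCODE M21; aligner, quantifiers and strand setting were not given in these sources. Entries outside mouse genes held 0.117%, 0.0993% and 0.0820% of the counts and stayed out of count tests.

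TPM as deposited gave levels, and FPKM served as an alternative. The second quantification was summed per gene. Shares of transcripts came from transcript TPM and differed from the deposited percent by at most 0.0303 points. Pairs of members were compared as log2(TPM + 0.1) by flipping signs over libraries, as an exact two-sided permutation test. Expected counts were rounded to whole numbers; after edgeR's default filter, a chi-square test of equal rates, with TMM library sizes and Benjamini-Hochberg adjustment over all genes tested, compared libraries (edgeR 4.0.16, R 4.3.3; DESeq2 1.42.0 size factors as an alternative; tested on simulated data). Counting error only is covered by the limits given for a count of 0. The coding parts of transcripts, and the 250 bases of each promoter window before the start, were aligned with Biopython 1.88. A planned comparison of proteins was replaced by coding sequence. The named genes were the 7 members, their overlapping or related genes, the listed pathway and marker genes described and the 3 genes nearest to Slfn2, Slfn5 and Slfn4. Members and lists were chosen with earlier results of these data known.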

Additional observations from a re-analysis of the deposited data

How the results depend on the processing

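No paired analysis was possible because the 3 libraries form a single group. The order of the members held in 21 of 21 pairs with each library left out. With each library left out in turn, the median member lay between 119 and 134 TPM, genes apart between the quantifications numbered 498 to 599, genes departing from equal rates 6090 to 7851, and detected genes 10181 to 10275. The median member, 126 TPM, was 109 TPM in the second quantification and 83.2 FPKM, a unit scaled in another way. Without length scaling, Slfn2 over Slfn5 turned from 1.68 to -0.22 on the log2 scale. Slfn1 over Slfn4 fell to 0.47, within its spread, with Slfn1 the higher in replicate 3 only. Of detected genes, 524 were over 1.5-fold apart between the quantifications; with all genes above 0 TPM this was 2443, by its wider choice of genes. Of the alternatives chosen after seeing the data, 4 of 7 members stayed highest in replicate 1 and lowest in replicate 3 in TMM-scaled CPM, 3 after division by the median detected gene, 0 in the second quantification and 2 in that after division by its median; the cause was not tested. Also chosen then, the CV of Slfn2 was 10.1% in the second quantification and 6.11% in TMM-scaled CPM, and the median CV of the members, the IFIT and the GBP genes in the second quantification was 15.9%, 18.4% and 26.4%. With 3 libraries the exact two-sided sign-flip permutation test cannot go below p = 0.25, and Slfn4, at 590 to 893 counts, had the fewest counts over the libraries together.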
